A study of Mus musculus with 4 samples.

Results

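The genes described here are 43 genes of the amino acid response: the stress-responsive transcription factors, the feedback and damage-limiting proteins they induce, enzymes that make serine, glycine, asparagine, proline and cysteine, amino acid transporters, and cytosolic aminoacyl-tRNA synthetases. They were taken by name from a list. Where several probe sets name a gene alone, the one shown was chosen by its mean level, the highest over the 4 arrays. Such a probe set existed for 41 of the 43, the exceptions being Pycr1 and Dars, which were not analysed here. Mars is carried in the array annotation under its current symbol, Mars1. In all, 18193 genes were measured in this way. The transporter gene Slc7a11 stayed under the background level on all 4 arrays, which left 40 genes to compare among 12439. The gene list was drawn up with results of these arrays known, so the counts below are descriptions.

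Cells that run short of an amino acid accumulate uncharged tRNA, which activates the kinase GCN2 (gene Eif2ak4). Phosphorylation of the initiation factor eIF2α then slows general translation while the mRNA of the transcription factor ATF4 is translated more. ATF4, paired with C/EBP family proteins, binds composite C/EBP-ATF elements in genes for amino acid synthesis, amino acid uptake and tRNA charging. Stress in the endoplasmic reticulum reaches the same factor through the kinase PERK (Eif2ak3), alongside the separate ATF6 and XBP1 branches. Activated T cells grow fast and import large amounts of amino acids through the SLC7A5-SLC3A2 transporter.

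Naive CD4+ T cells (CD44-negative and CD62L-positive) from OT2 T cell receptor transgenic mice on the C57BL/6J background were sorted out of spleen and lymph nodes and activated for 72 h through CD3 and CD28, with IL-6 (20 ng/ml), TGF-β (2 ng/ml) and an antibody against IL-4. The 4 groups, with 1 array each, were stat3 fl/fl cells without Cre (STAT3 wild type), CD4-Cre stat3 fl/fl cells (STAT3-deficient), stat5 fl/fl cells without Cre (STAT5 wild type) and CD4-Cre stat5 fl/fl cells (STAT5-deficient). Both STAT3 groups were grown with an antibody against IL-2 (10 µg/ml), and both STAT5 groups with added IL-2 (100 IU/ml). The Cre is driven by the Cd4 promoter, which is active from the thymus onwards. The sources used here give neither the age nor the number of mice behind each array. The comparison of the wild-type arrays sets IL-2 added against IL-2 neutralised, but the floxed line differs too, and the contributions of medium and line cannot be told apart.

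No group had a replicate, so no test was possible and no error can be given, and having 4 arrays in all limits the precision. Levels are deposited values read as log2, and a difference of 1 or more (2-fold) counts as a call. Array medians lay between 6.10 and 6.34. The median of all values, 6.20, served as the background level. Against the matching wild type, Stat3 differed by -2.94 on the STAT3-deficient array, and Stat5a and Stat5b went from 10.92 and 11.33 to 5.91 and 6.09 on the STAT5-deficient array, both under the background level. The genotype field of both deficient samples names the Cre yet ends by calling them wild type, whereas the titles call them deficient. All 8 measured genes of CD4 T cell identity stood at 9.53 or more on every array. Of 18 measured markers of other cells (erythroid, NK, B, CD8, myeloid and gamma delta T), 10 never rose above background and 0 differed by 2-fold between the wild types or in either deletion. Cd8b1 reached 8.06, and the summed level of the 18 ranged from 98.7 to 102.8. With RNA from whole cultures, fewer cells that express a gene and less RNA per cell cannot be told apart.

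Promoter sequence was available for 32 of the 41 measured genes, from RefSeq (GRCm38.p6), as windows of 250 bases before to 50 after each annotated start. The composite C/EBP-ATF motif TGATGNAA was searched on both strands. It was found in 11 of the 32 genes (34.4%), against 4.51% of all 27025 genes with such windows. The promoters of Atf3, which had the widest difference between the wild-type arrays, and of Asns, the classical gene of the amino acid response, are shown whole, and matches of 7 other genes with 11 bases on either side. Capitals mark the match, shown as its reverse complement where it lies on the opposite strand.
Atf3 (chr1:191183284-191183583, minus strand): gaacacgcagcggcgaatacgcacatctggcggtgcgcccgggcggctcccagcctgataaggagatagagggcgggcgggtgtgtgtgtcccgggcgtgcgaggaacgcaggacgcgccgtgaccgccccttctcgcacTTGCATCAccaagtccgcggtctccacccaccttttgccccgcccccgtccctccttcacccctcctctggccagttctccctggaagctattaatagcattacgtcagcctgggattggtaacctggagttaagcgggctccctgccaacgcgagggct
Asns (chr6:7693160-7693459, minus strand): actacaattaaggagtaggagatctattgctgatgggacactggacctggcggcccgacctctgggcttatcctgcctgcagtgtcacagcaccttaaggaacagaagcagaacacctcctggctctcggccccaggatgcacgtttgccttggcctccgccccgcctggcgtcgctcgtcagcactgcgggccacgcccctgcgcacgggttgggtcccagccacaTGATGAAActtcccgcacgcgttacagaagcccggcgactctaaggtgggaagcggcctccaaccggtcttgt
Chac1 (chr2:119351038-119351067, plus strand): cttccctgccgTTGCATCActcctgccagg
Trib3 (chr2:152344028-152344057, minus strand): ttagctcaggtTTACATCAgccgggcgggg
Herpud1 (chr8:94386306-94386335, plus strand): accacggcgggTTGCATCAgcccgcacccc
Gars (chr6:55037960-55037989, plus strand): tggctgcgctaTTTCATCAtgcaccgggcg
Iars (chr13:49682126-49682155, plus strand): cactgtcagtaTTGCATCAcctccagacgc
Tars (chr15:11399655-11399684, minus strand): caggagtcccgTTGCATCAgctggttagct
Yars (chr4:129189895-129189924, plus strand): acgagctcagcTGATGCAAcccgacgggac
The match began at -110 in Atf3 and at -23 in Asns, counting the first of the 50 downstream bases as 1. In Trib3, Iars and Yars it lay just after the annotated start, at 15, 8 and 4. Slc7a11 held a pair, at -66 and -47.

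The STAT motif TTCNNNGAA, which reads the same on both strands, was present in 5 of the 32 genes (15.6%) against 9.55% of all genes. Those of Shmt2, Aldh18a1 and Kars are shown with 11 bases on either side because the series deletes STAT factors. The endoplasmic reticulum stress element, searched on both strands, was found in Hspa5 alone among the 32 (3.12%, against 0.137% of all genes), and it is shown last.
Shmt2 (chr10:127522480-127522510, minus strand): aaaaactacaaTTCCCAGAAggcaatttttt
Aldh18a1 (chr19:40588598-40588628, minus strand): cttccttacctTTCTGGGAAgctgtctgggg
Aldh18a1 (chr19:40588483-40588513, minus strand): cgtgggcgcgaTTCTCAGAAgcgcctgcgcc
Kars (chr8:112011344-112011374, minus strand): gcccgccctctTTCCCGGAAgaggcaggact
Hspa5 (chr2:34772014-34772054, plus strand): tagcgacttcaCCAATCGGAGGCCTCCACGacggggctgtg
A match describes letters in a window and shows no binding. Among genes above the background level, those with a C/EBP-ATF match had a median difference between the wild-type arrays of 1.29 on the log2 scale, with 8 of 10 called higher. Those without one had 1.18, with 12 of 21 called, where 2.35% of all genes were called higher. The ranges, 0.45 to 2.86 and 0.04 to 1.89, overlapped. The 4 genes with a STAT match and a level above background differed by -0.31 to 0.17 in the absence of STAT5. In the absence of STAT3 they differed by -0.11 to 0.27, so 0 of the 4 were called in either deletion. Over all genes, 1.86% were called higher and 1.74% lower without STAT5, and 2.85% and 7.24% without STAT3. A count of 0 among 4 genes therefore says little.

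**Figure D1:**
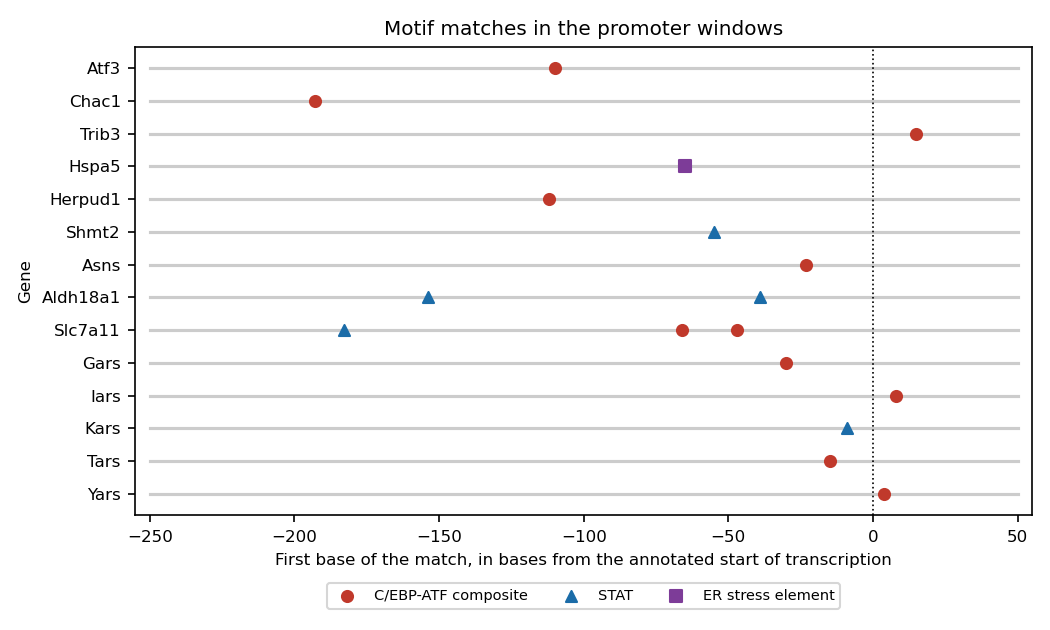
Positions of motif matches in the promoter windows of 14 genes, in bases from the annotated start of transcription (dotted line). Circles stand for the C/EBP-ATF composite, triangles for the STAT motif and the square for the endoplasmic reticulum stress element; C/EBP-ATF matches run from -193 in Chac1 to 15 in Trib3.

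Between the wild-type cultures the response genes were higher with IL-2 added. All 40 lay above 0 in STAT5 wild type minus STAT3 wild type, where 55.3% of all genes did. Of the 40, 26 (65.0%) were called higher, against 2.35% of all genes, and 0 were called lower, against 2.95%. Their median difference was 1.20 (2.30-fold), while the median over all genes was 0.06. The scaling moved the count: 31 were called higher with each array centred on its median, where 4.77% of all genes were, and 19 with intensity-dependent centring, where 2.47% were. The last setting placed Ddit4 (-0.21) and Qars (-0.20) below 0. Averaging probe sets placed Qars at -0.22, and leaving out probe sets that can match more than 1 transcript placed Wars at -0.17.

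Below, the 4 levels of a gene are given in a fixed order: without IL-2 the STAT3 wild type then the STAT3-deficient array, and with IL-2 the STAT5 wild type then the STAT5-deficient array. Atf3, a repressor and activator of the ATF family that many stresses induce, stood at 6.52, 6.85, 9.38 and 7.19. It was high on the STAT5 wild-type array alone, by 2.86 (7.26-fold) over the other wild type, and its 3 lower levels lie close to the background level. Cebpb, a C/EBP partner of ATF4, stood at 8.72, 9.56, 10.24 and 9.22, a difference of 1.52 between the wild types. For Cebpb the groups of the 2 media overlapped, since the STAT3-deficient array exceeded the STAT5-deficient one. Atf4 itself stood at 11.58, 11.78, 12.52 and 12.68, 0.94 apart between the wild types and short of 2-fold. Atf5, a related factor, stood at 8.09, 7.94, 8.91 and 8.88. Ddit3, which encodes the death-promoting factor CHOP, stood at 8.89, 8.54, 9.76 and 9.10. For these 3 factors both arrays with IL-2 exceeded both arrays without it, and the differences between wild types were 0.82 to 0.94.

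Among the inhibitors and effectors that the response induces, Chac1, an enzyme that degrades glutathione, stood at 6.55, 7.33, 8.79 and 9.22 and differed by 2.24 (4.71-fold). Trib3, a pseudokinase that restrains ATF4 and AKT, stood at 7.55, 7.77, 9.51 and 9.01. Sesn2, a leucine-binding inhibitor of mTORC1, stood at 7.37, 8.37, 9.23 and 8.82. Both arrays with IL-2 were above both others for these 3 genes, with wild-type differences of 2.24, 1.95 and 1.86. Ddit4, an inhibitor of mTORC1 that also answers to hypoxia and glucocorticoids, stood apart from them. Its levels were 11.01, 10.53, 11.05 and 10.89, and the wild types differed by 0.04.

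The enzymes of serine, glycine and one-carbon metabolism were all called, 6 of 6, where 2.35% of all genes were called higher. Their median was 1.38 (2.61-fold). With probe sets averaged 4 of 6 were, as Shmt1 stood at 0.98 and Shmt2 at 0.86. Phgdh, the first enzyme of serine synthesis, stood at 11.23, 12.44, 13.05 and 13.17. Psat1, the second step, stood at 11.13, 11.64, 12.43 and 12.51. Psph, the last step, stood at 9.41, 10.00, 11.29 and 11.36. In the 3-step pathway the wild-type differences were 1.81, 1.30 and 1.89, and the STAT3-deficient array lay between the STAT3 wild type and the arrays with IL-2 for every step. Shmt1, the cytosolic enzyme that splits serine into glycine and a one-carbon unit, stood at 9.17, 9.66, 10.41 and 10.18. Shmt2, its mitochondrial counterpart, stood at 11.004, 11.27, 12.40 and 12.57. Mthfd2, the mitochondrial folate enzyme of proliferating cells, stood at 10.13, 10.73, 11.50 and 11.70. These last 3 enzymes differed by 1.24, 1.40 and 1.37, and one of the 4 Shmt2 probe sets ran the other way, at -0.59.

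Asns, asparagine synthetase, stood at 9.78, 10.31, 11.90 and 11.64, a wild-type difference of 2.11 (4.32-fold), with its other probe set at 2.12. Cth, which makes cysteine by transsulfuration, stood at 6.43, 8.30, 9.25 and 9.80. Its lowest level lies close to background, and the wild types differed by 2.83 (7.09-fold). Aldh18a1, which starts proline synthesis, stood at 10.53, 10.45, 11.85 and 11.54, and its 5 probe sets differed by 0.58 to 1.38. Slc7a5, the catalytic subunit of the large neutral amino acid transporter, stood at 9.89, 10.79, 12.21 and 11.96, and differed by 2.32. Slc3a2, the chain that carries it to the membrane, stood at 10.70, 10.94, 12.08 and 11.79, and differed by 1.38. Both subunits of the transporter were higher on both arrays with IL-2. Slc7a11, the cystine importer, ranged from 4.71 to 5.29, below the background level, and no fold is given.

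**Figure D2:**
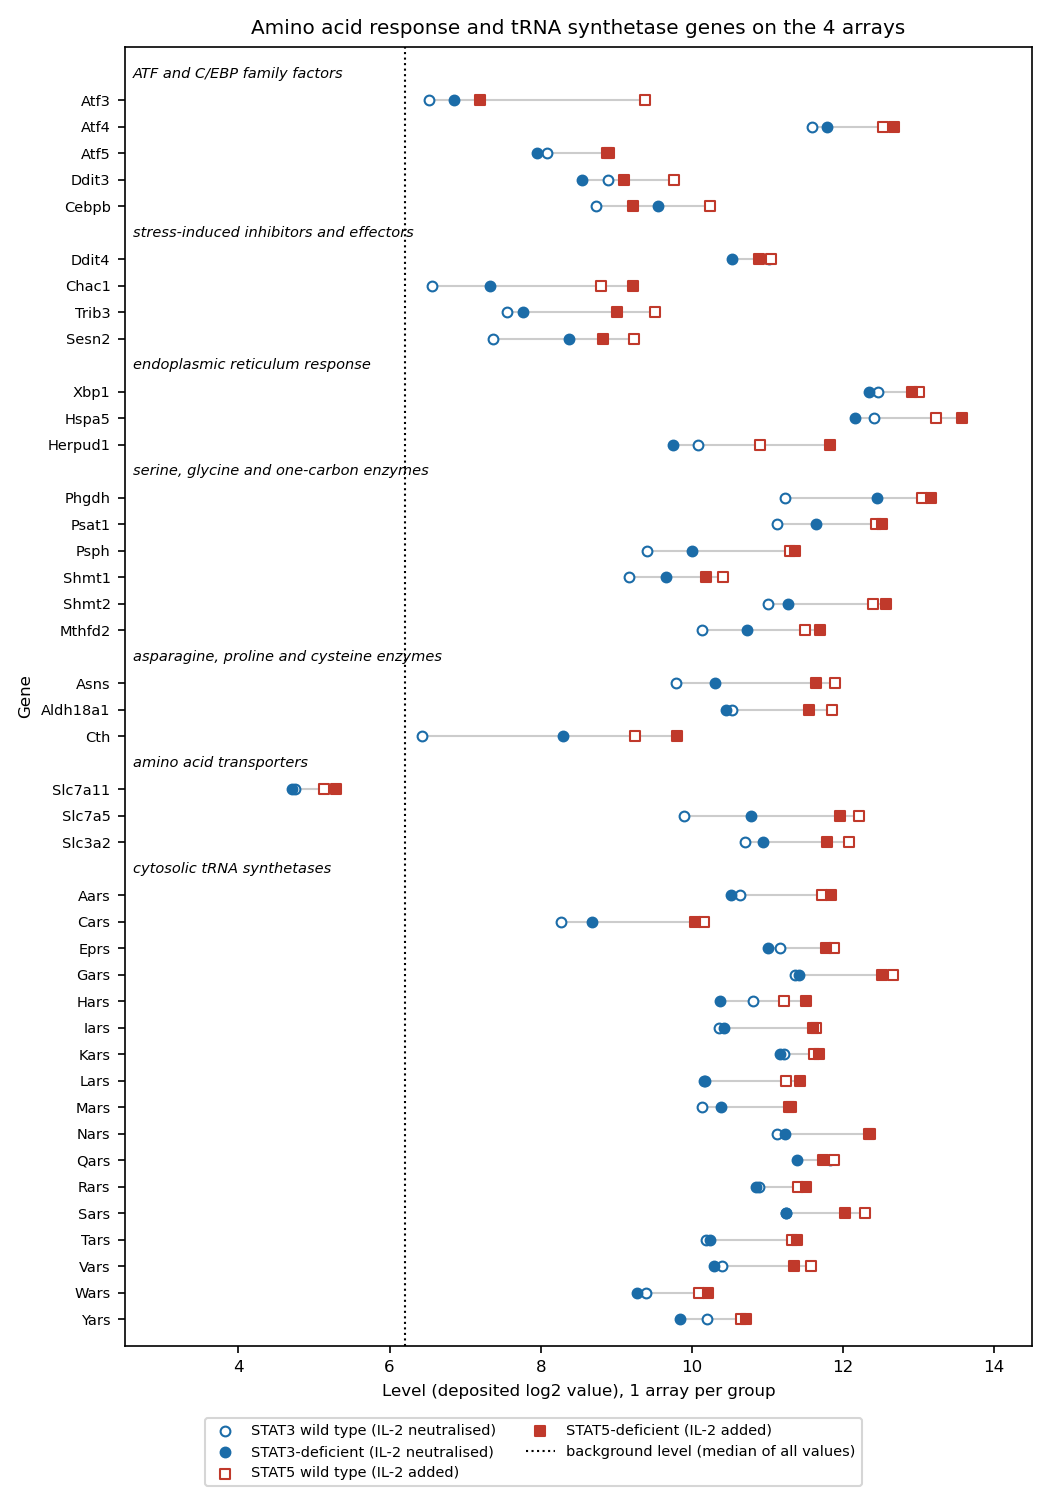
Levels of the 41 measured genes, 1 row per gene, on a log2 axis with 1 symbol per array. Open symbols stand for wild type and filled ones for deficient cells, circles for IL-2 neutralised and squares for IL-2 added; the dotted line is the background level of 6.20. The squares lie to the right of the circles for 37 of the 40 genes above background, the exceptions being Cebpb, Ddit4 and Qars.

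Of 17 measured synthetases above background, 10 were called higher between the wild types and 0 lower, against 2.35% and 2.95% of all genes. Their median was 1.09 (2.13-fold). With intensity-dependent centring 3 of the 10, Cars, Gars and Iars, were still called, and the other 7 stood at 0.80 to 0.96. Of all genes, 2.47% were called higher with that centring. Cars, which charges cysteine tRNA, had the widest difference at 1.90, from levels of 8.26, 8.67, 10.16 and 10.04. It rests on 1 probe set, as the other, at 6.97, 6.45, 6.91 and 6.82, differed by -0.06. Gars (glycine) stood at 11.36, 11.41, 12.67 and 12.51, Iars (isoleucine) at 10.36, 10.43, 11.64 and 11.60, and Nars (asparagine) at 11.13, 11.23, 12.35 and 12.36. In each of them the media stood more than 2-fold apart. With the chosen probe sets the widest difference within a medium was -0.15, in Gars without STAT5. The other Nars probe set differed by 0.32 without STAT3. Lars, Aars, Tars, Mars, Vars and Sars, for leucine, alanine, threonine, methionine, valine and serine, differed by 1.09, 1.10, 1.13, 1.18, 1.19 and 1.05. The 7 not called were Eprs (0.72), Wars (0.70), Rars (0.51), Yars (0.45), Hars (0.42), Kars (0.40) and Qars (0.05). With the chosen probe sets Qars, for glutamine, was the only synthetase whose arrays did not separate by medium, with levels of 11.83, 11.39, 11.88 and 11.73. The other Cars probe set did not separate either, nor did 1 of Wars, at 9.58, 9.43, 9.41 and 9.59.

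Several synthetases sit in a multi-enzyme complex in the cytosol. Of 7 measured complex members (Eprs, Iars, Kars, Lars, Mars, Qars and Rars) 3 were called, with a median of 0.72. Of 10 synthetases outside it 7 were called, with a median of 1.11. This grouping was made after the values were seen, and the ranges of 0.05 to 1.28 and 0.42 to 1.90 overlapped. The 5 other genes of the cytosolic machinery, the phenylalanine synthetase subunits Farsa and Farsb and the scaffold proteins Aimp1, Aimp2 and Eef1e1, had a median of 0.38. None of them was called, where 2.35% of all genes were higher and 2.95% lower, and Farsb was the nearest at 0.97.

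Mitochondria charge their own tRNAs, mostly with enzymes from separate nuclear genes. Of 15 such genes above background, 0 were called in any of the 3 comparisons. Calls were also rare over all genes, from 1.74% to 7.24% by comparison and direction, so that count says little. The median difference of the 15 between the wild types was 0.15, against 1.09 for the cytosolic genes and 0.06 for all genes. In 12 pairs of genes for the same amino acid, the cytosolic gene had the larger wild-type difference in 11, by a median of 0.88 over the 12. For Wars and Cars this depends on the probe set, as another stood at -0.17 and -0.06, below Wars2 (0.21) and Cars2 (0.13). Cytosolic genes mostly had the higher levels. Of all genes passing the stricter filter of 8.29, 68.7% lay above 0, against 55.3% with the main one. The pairs were not compared with intensity-dependent centring. Alanine gave 1.10 for Aars and 0.06 for Aars2, and leucine 1.09 for Lars and 0.12 for Lars2. Tyrosine was the reverse, with 0.45 for Yars and 0.68 for Yars2. Without STAT5 and without STAT3 the cytosolic gene had the higher value in 5 of 12 pairs each.

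**Figure D3:**
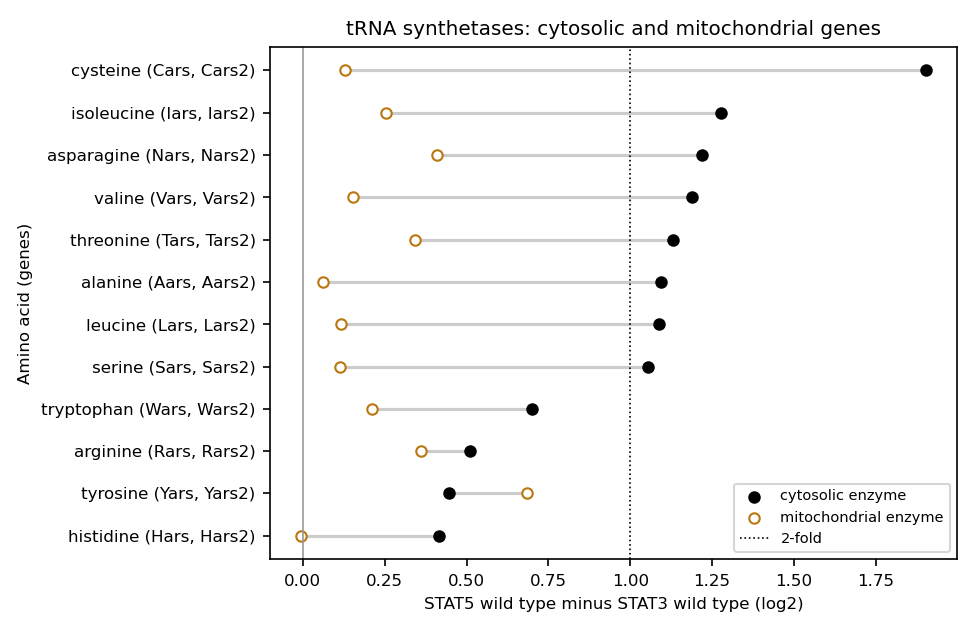
Difference between the wild-type arrays (STAT5 wild type minus STAT3 wild type, log2) for 12 pairs of synthetase genes, filled points for the cytosolic and open points for the mitochondrial enzyme, with the dotted line at 2-fold. With the probe set chosen for each gene, the cytosolic gene lies to the right in all pairs but tyrosine, and 8 of the 12 cytosolic genes lie past 2-fold.

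The endoplasmic reticulum genes differed less. Hspa5, the chaperone BiP, stood at 12.41, 12.16, 13.22 and 13.57, Xbp1, the factor of the IRE1 branch, at 12.46, 12.34, 13.01 and 12.91, and Herpud1, which serves protein degradation at that membrane, at 10.08, 9.75, 10.90 and 11.82. All 3 separated by medium, and the wild types differed by 0.82, 0.55 and 0.82, short of 2-fold. The other Hspa5 probe sets stood at 1.03 and -0.15, and the other Herpud1 probe set at 1.18. With array median centring Hspa5 and Herpud1 both passed 2-fold, at 1.01, and with probe sets averaged Herpud1 did, at 1.002. Of 21 further genes of the unfolded protein response, 2 were called higher between the wild types, Sdf2l1 (1.19) and Creld2 (1.01), both chaperone-associated proteins, and 0 lower. The median of these 21 was 0.52, against 0.06 over all genes. Of all genes, 2.35% were called higher and 2.95% lower.

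Genes upstream in the pathway differed less. Of 13 measured genes for eIF2α kinases, phosphatase subunits and eIF2B, 0 were called between the wild types, and the median was 0.17. Over all genes, 2.35% were called higher and 2.95% lower, so 0 of 13 says little. Eif2b3, a subunit of the exchange factor eIF2B, was farthest at 0.76, Eif2ak4 was at 0.17 and Eif2ak3 at -0.16. Of 21 other genes known as ATF4 targets, 4 were called higher and 1 lower, with a median of 0.31. The higher ones were Slc7a3, a cationic amino acid transporter (2.52), Slc6a9, a glycine transporter (2.10), Pck2, the mitochondrial carboxykinase (2.07), and Nupr1, a stress-induced chromatin protein (1.87). Jdp2, a repressor of the same family as ATF3, was the lower one, at -1.27. Gpt2, of the same list, was at 0.43 and not called, but at 1.81 with its 4 probe sets averaged.

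**Figure D4:**
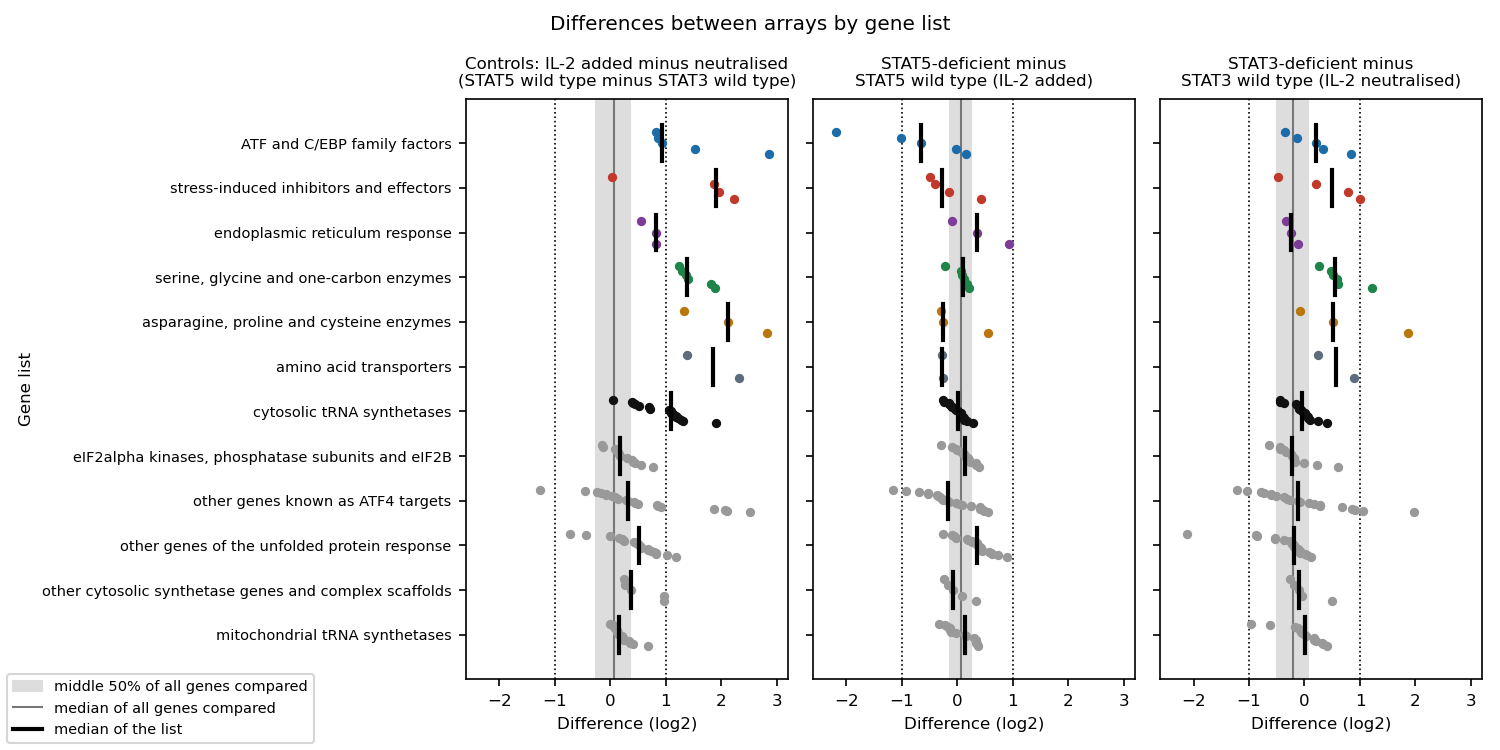
Differences (log2) of the genes above background by list, 1 point per gene, for the 3 comparisons. Thick bars are list medians, the grey band holds the middle 50% of all genes compared with their median as a line, and dotted lines mark 2-fold. In the left panel the medians of the 7 lists of response genes run from 0.82 to 2.11; in the middle panel Atf3 and Cebpb lie on or past the left dotted line; in the right panel Cth, Phgdh and Sesn2 lie past the right one.

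Deletion of STAT5, with IL-2 present, left most of these genes near their control. In STAT5-deficient minus STAT5 wild type, 2 of 40 (5%) were called lower, against 1.74% of all genes, and 0 higher, against 1.86%. The median was -0.03, with 0.06 over all genes. Atf3 went from 9.38 to 7.19, a difference of -2.19 (4.57-fold), and Cebpb from 10.24 to 9.22, a difference of -1.02. With its probe sets averaged, Cebpb stood at -0.95. Ddit3 (-0.65), Trib3 (-0.50) and Sesn2 (-0.40) lay below their control and Herpud1 (0.93), Cth (0.55) and Chac1 (0.43) above it, all within 2-fold. The 6 serine and one-carbon enzymes ranged from -0.23 (Shmt1) to 0.20 (Mthfd2), the transporter subunits stood at -0.26 (Slc7a5) and -0.28 (Slc3a2), and the 17 synthetases ranged from -0.26 (Sars) to 0.29 (Hars). Over the 5555 genes with several probe sets above background, probe sets of the same gene differed with a median SD of 0.17 in this comparison, 0.21 between the wild types and 0.23 without STAT3.

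The STAT5-deficient array stood apart from the arrays without IL-2 in most of these genes. Against STAT3 wild type, 25 of 40 (62.5%) were higher by 2-fold or more, where 3.36% of all genes were, and 0 were lower, against 2.89%. The median was 1.15, and 38 of 40 lay above 0, where 59.8% of all genes did. With probe sets averaged, 20 were higher by 2-fold or more, where 2.66% of all genes were. Cth (3.37), Chac1 (2.67) and Slc7a5 (2.07) were the farthest, while Atf3 was at 0.67 and Cebpb at 0.50. Both arrays with IL-2 exceeded both without it for 37 of 40 genes (92.5%), against 39.7% of all genes. They did so by 2-fold or more for 14 (35.0%), against 0.466%, and 0 lay below on both, against 11% of all genes. Those 14 were Chac1, Trib3, Psph, Shmt2, Asns, Aldh18a1, Slc7a5, Cars, Iars, Nars, Gars, Aars, Tars and Lars. For Shmt2 and Cars this rests on the chosen probe set, as averaging placed their wild-type differences at 0.86 and 0.92, short of 2-fold. The contrasts in this paragraph share arrays with the wild-type comparison and are not separate evidence, and medium and floxed line again cannot be told apart.

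Among the other lists, unfolded protein response genes had the higher median without STAT5, 0.35, with 17 of 21 above 0, where 59.4% of all genes lay. None was called, Derl3, which takes part in degradation of misfolded proteins, being the farthest at 0.90, and Hspa5 stood at 0.35. Of the other ATF4 targets, 1 was lower, the lipoprotein receptor gene Vldlr (-1.16), and 0 higher. The kinase and eIF2B list had 0 called, with Eif2b1 farthest at 0.39, and of the cytosolic machinery Farsa was farthest at 0.33. Over all genes, 1.86% were called higher and 1.74% lower. Lars2, at 0.37, was the farthest mitochondrial synthetase.

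Deletion of STAT3, with IL-2 neutralised, went with higher levels of a few of these genes. In STAT3-deficient minus STAT3 wild type, 3 of 40 (7.50%) were called higher, against 2.85% of all genes, and 0 lower, against 7.24%. The members had a median of 0.06 while the median over all genes was -0.20. Cth was higher by 1.87 (3.65-fold), from 6.43 to 8.30, so its control lay close to the background level. Phgdh was higher by 1.21 (2.31-fold), from 11.23 to 12.44, with its 4 probe sets between 1.10 and 1.80, and Sesn2 by 1.002, at the limit, with its other probe set at 0.25. Slc7a5 (0.90), Cebpb (0.83) and Chac1 (0.78) came next and passed 2-fold with either centring of the arrays, which brought the count to 6. Centring on array medians moved the median of all genes by 0.24, and 4.13% of all genes were then called higher.

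The 6 serine and one-carbon enzymes all lay above 0 without STAT3, from 0.27 (Shmt2) to 1.21 (Phgdh), with a median of 0.55, where 30.7% of all genes lay above 0. For Shmt2, 2 of 4 probe sets lay below 0. Asns was at 0.52, Slc3a2 at 0.24 and Aldh18a1 at -0.08, and the 4 other probe sets of Aldh18a1 were all lower, down to -1.39. The 17 synthetases centred on -0.05, from -0.44 (Qars and Hars) to 0.41 (Cars), and 0 were called. Atf3 (0.33), Atf4 (0.20), Atf5 (-0.14) and Ddit3 (-0.35) stayed within 2-fold, as did Ddit4 (-0.48). The endoplasmic reticulum genes were at -0.12 (Xbp1), -0.25 (Hspa5) and -0.33 (Herpud1), near the median of all genes.

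Of the other lists without STAT3, the ATF4 targets had 2 called higher, Nupr1 (1.97) and Pck2 (1.05), and 2 lower, Rab39b and Vldlr (-1.04). Rab39b went from 6.44 to 5.23, under the background level. With probe sets averaged, Pck2 (0.69) and Vldlr (-0.58) lay within 2-fold, and Stc2 passed it, at 1.21 against 0.85. The unfolded protein response genes had a median of -0.19 and 1 called lower, Ern1, the sensor IRE1 (-2.13), or -0.79 with its 5 probe sets averaged. The kinase and eIF2B list had 0 called and a median of -0.23, with Eif2ak3 farthest at -0.63. Over all genes, 2.85% were called higher and 7.24% lower. Of the cytosolic machinery Eef1e1 was farthest at 0.50, and Nars2, at -0.97, was the farthest mitochondrial synthetase.

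The 2 deletions share no array and can be set side by side. Cebpb lay on opposite sides, at 0.83 without STAT3 and -1.02 without STAT5, with its second probe set at 1.02 and -0.88. Atf3 was at 0.33 and -2.19. Sesn2 (1.002 and -0.40) and Slc7a5 (0.90 and -0.26) lay above their control without STAT3 and below it without STAT5, while Herpud1 (-0.33 and 0.93) lay the other way, although its second probe set stood at 0.27 without STAT3. Cth was above its control in both, at 1.87 and 0.55. Of the 40, 3 were called without STAT3 and 2 others without STAT5. With so few calls, the lack of overlap is not read as a result. Whether the effects of the deletions differ was not tested, since each has 1 array on a side and the media differ.

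**Figure D5:**
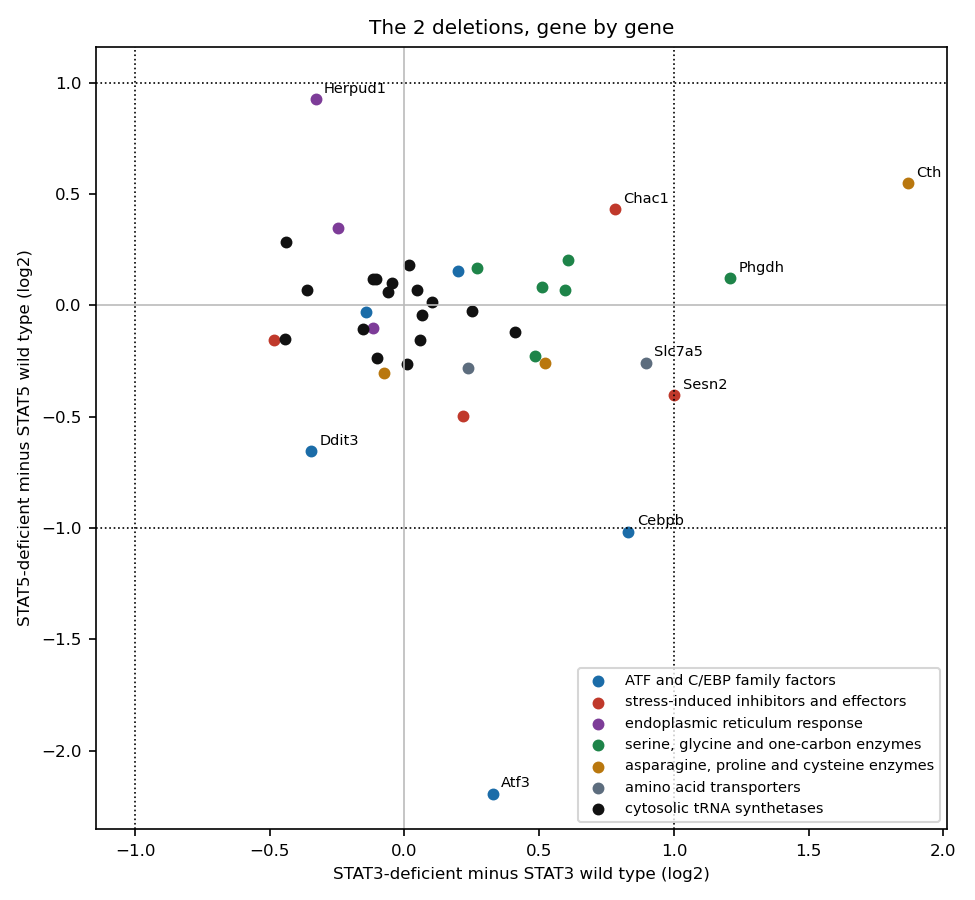
Difference without STAT3 (horizontal axis) against difference without STAT5 (vertical axis), both log2, 1 point per gene above background, coloured by role, with dotted lines at 2-fold. Most points, including all synthetases, lie within 2-fold on both axes; Cth, Phgdh and Sesn2 lie on or past the right line, and Atf3 and Cebpb on or past the lower one.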

How the data were processed

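The deposited values are 1 log2 expression value per probe set and array. Per the submitters' processing notes they were made with Affymetrix Power Tools. The sources used here do not state its version, the summarisation, the centring or the logarithm base. The base was read as 2 because values run from 2.48 to 15.09. Of 45101 probe sets, 34958 name 1 gene, 932 several and 9211 none. Those naming several or none, and control probe sets, were left out. A gene's value was that of its probe set with the highest mean. Genes whose highest value exceeded 6.20 (percentile 50 of all values) were compared. Differences were taken without a test, since each group has 1 array, and called at 2-fold. Gene symbols were matched to RefSeq promoters (GRCm38.p6) by Entrez identifier. The gene members and lists were chosen with earlier results of these data known. The text gives all members above the background level by level or difference, and of each further list the genes past 2-fold (at most 4), or the farthest. Python 3.11.15, pandas 2.3.3 and statsmodels 0.14.6 were used, and the calculation was tested on simulated data. Alternatives were averaged probe sets, dropping the multiple-transcript probe sets (suffix _x_at or _s_at), no filter, filtering at percentile 75 (8.29), centring on array medians or by lowess over intensity, and 1.5-fold or 3-fold thresholds. The positions and sequence of 1 promoter's matches are not reported here.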

Additional observations from a re-analysis of the deposited data

How the results depend on the processing

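No called difference of a single gene changed sign under any alternative. The number of genes called higher between the wild types stayed at 23 to 31 with averaged probe sets, without probe sets that can match several transcripts, with other filters and with array median centring. It was 19 with intensity-dependent centring, where the median difference was 0.95. Without STAT3 the genes called higher numbered 6 with either centring, and the median was 0.305 with array median centring. Without STAT5 the genes called lower numbered 1 with averaged probe sets, as Cebpb missed 2-fold. At 1.5-fold, 8 genes were higher without STAT3 (5.66% of all genes were), 1 was higher (6.43%) and 3 lower (5.18%) without STAT5, and 33 were higher between the wild types (10.8%). At 3-fold, 1 was higher without STAT3 (1.44% of all genes), 1 lower without STAT5 (0.563%) and 10 higher between the wild types (0.659%). Leaving out probe sets that match several transcripts removed Phgdh, whose 4 probe sets are all of that kind. The alternatives for the contrasts over all 4 arrays were chosen after seeing the data, and their counts stayed within 1.5 times the value given. No paired analysis was possible because each group has 1 array and the labels carry no replicate numbers. Levels near 6.20 (Atf3, Cth and Chac1 on the STAT3 wild-type array) limit how well their folds are known.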
